A study of Mus musculus with 10 samples.

Results

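The genes described here encode the machinery that brings proteins into mitochondria and the complex that shapes the inner membrane into cristae. They were chosen by name from the deposited gene table, as every gene whose symbol was Timm, Tomm or Chchd followed by a number, together with Samm50, Mtx1, Mtx2 and Immt. This gave 38 of the 24537 genes. RNA had been sequenced from heart tissue of 10 mice at 6 weeks of age, 5 control and 5 iSOD2. All 10 mice carried 1 copy of the doxycycline-responsive transactivator (Rosa26-rtTA2+/-) and were exposed to doxycycline in utero. The iSOD2 mice also carried 1 copy of a doxycycline-driven hairpin against Sod2 (TRE-SOD2-shRNA+/-), so that SOD2, the matrix enzyme that removes superoxide, was knocked down before birth only, and the controls carried no hairpin (TRE-SOD2-shRNA-/-). The transactivator was not restricted to cardiomyocytes. Each genotype held 2 mice of litter A and 3 of litter B, and the controls were 3 males and 2 females and the iSOD2 mice 2 males and 3 females. Because whole tissue was used, more cells of a type and more RNA per cell cannot be told apart in any value below.

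Most mitochondrial proteins are made in the cytosol from nuclear genes and enter through the TOM complex of the outer membrane. From there the TIM23 complex carries proteins with a presequence toward the matrix, small TIM chaperones escort membrane proteins through the intermembrane space to TIM22 or to the SAM complex, and the CHCHD4 relay folds small cysteine-rich proteins by giving them disulfide bonds. MICOS holds the necks of the cristae, the inner membrane folds that carry the respiratory chain, which are densely packed in heart muscle.

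Of the 38 genes, 37 had at least 10 counts in all and were tested. Timm8a2, a small TIM gene, had 6.0 counts summed over the 10 hearts, between 0 and 3.5 in each, and was not tested. Levels were compared between genes only as normalized counts (counts scaled for library depth) per kb of exon. On that scale Chchd10 was the most abundant, at 10156 on average over the 10 hearts, and its lowest heart lay above the highest heart of every other member. Chchd2, its paralog, followed at 4805, then the MICOS genes Immt at 4079 and Chchd3 at 3998, whose ranges overlapped. The channel gene Timm23 stood at 2413 and Samm50 at 2069, again with overlapping ranges, followed by Timm17a at 1764, Timm8b at 1526 and Tomm5 at 1153. At the low end lay Chchd6 at 109.6, Chchd5 at 103.1, the antisense RNA Tomm6os at 50.29 and Tomm20l at 8.377. The spread between hearts of a group was small for most members, with a coefficient of variation of 2.63% to 17.2% and a median of 6.48% among the 36 members averaging 50 normalized counts or more.

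**Figure D1:**
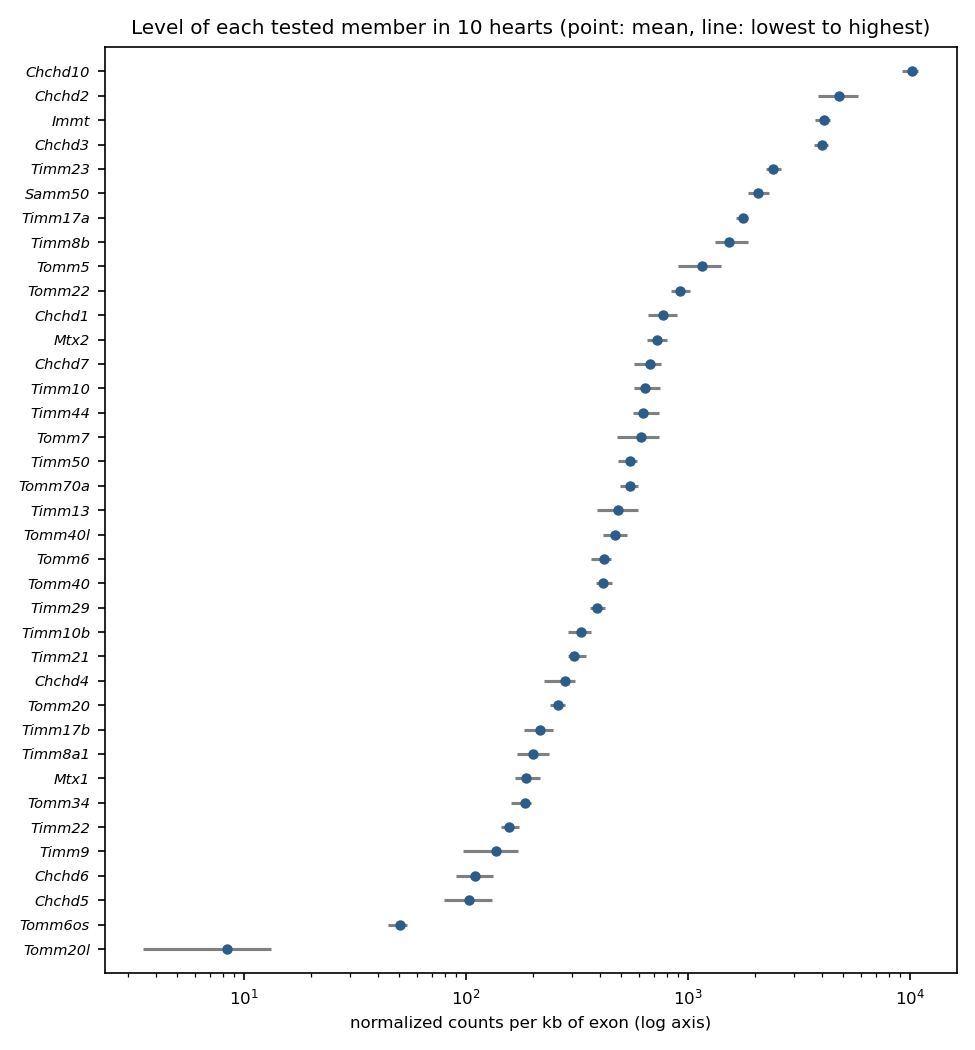
Level of each of the 37 tested members in 10 hearts, as normalized counts per kb of exon on a log axis. Points are means over 10 hearts and lines run from the lowest to the highest heart; Chchd10 (10156) stands apart at the top and Tomm20l (8.377) at the bottom.

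The rows of some members may hold reads of other genes. The row named Timm8a1 lies at chr10:11609224-11610438, where the GENCODE annotation places a processed pseudogene, Gm9797, whose transcript was identical over 612 bases to that of Timm8a1 at chrX:134537256-134541865, so its value is uncertain. Transcripts of 5 members had a copy elsewhere in the genome that was at least 95% identical over at least 200 bases, namely Timm8a1, Timm23, Tomm20, Chchd2 and Timm17a. The longest copy was 1121 bases at 99.9% identity for Timm23 and 462 bases at 98.9% for Chchd2. Tomm6os overlapped Tomm6 by 777 bp on the opposite strand, and the counting was not stated to use strand. Tomm40l overlapped the genes Nr1i3 and Apoa2 in the same way, the latter by 951 bp.

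The genotypes were compared to ask whether import and cristae genes still differed weeks after the knockdown had ended. Sod2 itself averaged 10573 ± 588 normalized counts over the 5 controls and 10781 ± 449 over the 5 iSOD2 hearts (SD, two-sided exact permutation p 0.532). In iSOD2 hearts 33 of the 37 tested members were higher and 4 were lower. The median log2 fold change (iSOD2 over control) was 0.10, with a range of -0.08 to 0.34, and that of all genes tested was -0.0018. The 38 genes made up 0.255% to 0.273% of the gene counts in the controls and 0.276% to 0.293% in the iSOD2 hearts, so the shares did not overlap. Those of the complex I subunit genes did not overlap either, at 0.782% to 0.841% in controls and 0.897% to 0.92% in iSOD2 hearts. Those of the mitochondrial ribosomal protein genes overlapped, at 0.244% to 0.281% and 0.275% to 0.305%. Chchd2 and Timm8b rose. They were the members called, with a DESeq2 adjusted p of at most 0.05 and an absolute log2 fold change above 0.25, the thresholds of the study's methods. These 2 were 6.25% of the 32 members that received an adjusted p, against 2.96% called in either direction, and 1.27% called and higher, among the 9479 genes that received one. Chchd3 was the only other member with an adjusted p of at most 0.05, a condition that 6.09% of those 9479 genes met. Without adjustment, 12 members had a DESeq2 p under 0.05, all higher in iSOD2 hearts, or 32.4% of those tested, against 7.29% of all genes higher at that p. The hearts of the genotypes did not overlap for 4 of the 36 members with a mean of at least 50 (Chchd2, Timm8b, Chchd3 and Timm50), all higher, or 11.1% against 2.75% of all such genes.

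Chchd2 encodes a twin CX9C protein of the intermembrane space whose mutations are linked to Parkinson's disease. Its normalized counts in controls 1, 2, 3, 4 and 6 were 3738, 3717, 3483, 4430 and 3776. In iSOD2 hearts 5, 7, 8, 9 and 10 they were 5254, 4799, 4961, 4498 and 4784. Every iSOD2 heart lay above every control, with the lowest iSOD2 heart close to control 4, the highest control. The log2 fold change was 0.34 ± 0.07 (SE), with a DESeq2 adjusted p of 0.000185 and an exact permutation p of 0.00794, the smallest that 5 against 5 hearts can give. It was called with each heart left out in turn (log2 fold change 0.31 to 0.40) and was 0.39 within litter A and 0.31 within litter B (DESeq2 adjusted p 0.000361 and 0.156). The call was lost in litter B alone, with edgeR (adjusted p 0.0664), with limma voom (0.0713) and, by the fold threshold, with the length trend removed (0.21). The paralog Chchd10, linked to amyotrophic lateral sclerosis, averaged 9435 ± 512 normalized counts in control hearts and 9699 ± 439 with the hairpin (SD, n = 5 each), and its log2 fold change was 0.04 ± 0.05 (SE). The log2 ratio of Chchd2 to Chchd10 averaged -1.24 ± 0.20 over the 5 controls and -0.94 ± 0.11 over the 5 iSOD2 hearts (SD). Their exons are of like length, at 904 and 942 bp, but their GC contents are 53.9% and 61.9%. The ratio was compared for 8 pairs of paralogs or partners chosen after the values were seen, and this difference of 0.31 (exact permutation p 0.0397) was not significant after Benjamini-Hochberg adjustment (0.19), nor was that of any other pair.

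Timm8b encodes a small TIM chaperone that works with Timm13. Its normalized counts were 705.4, 700.7, 694.6, 802.0 and 726.5 in controls 1, 2, 3, 4 and 6, and 969.4, 848.5, 853.6, 874.6 and 803.1 in iSOD2 hearts 5, 7, 8, 9 and 10. The groups did not overlap, but control 4 and iSOD2 heart 10 nearly met. The log2 fold change was 0.26 ± 0.07 (SE), with a DESeq2 adjusted p of 0.00748. This lies near the fold threshold, and the call was lost without control 1 (0.248), control 2 (0.249) or iSOD2 heart 5 (0.218) and with sex as a covariate (0.247). It was lost on both thresholds without control 3 (0.245, DESeq2 adjusted p 0.0612). With edgeR its adjusted p was 0.0825, with limma voom 0.0873, and it was called in neither litter alone. Timm13 had 569.8, 477.5, 475.2, 600.5 and 585.8 normalized counts in the controls and 641.8, 627.8, 724.9, 585.0 and 599.5 in the iSOD2 hearts. The groups overlapped, and the log2 fold change of 0.23 ± 0.09 (SE) had a DESeq2 adjusted p of 0.107. The ratio of Timm8b to Timm13 differed by 0.03 on the log2 scale (exact permutation p 0.786). The other tested small TIM genes were also higher, with none called. Their log2 fold changes were 0.15 for the row named Timm8a1, 0.13 for Timm10, 0.13 for Timm10b and 0.07 for Timm9. Timm9 received no adjusted p.

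Chchd3 encodes MIC19, a MICOS subunit. It had 5236, 5652, 5344, 5521 and 5366 normalized counts in the controls and 5940, 6065, 5806, 6101 and 5825 in the iSOD2 hearts. These values were the steadiest of the members between hearts, and the groups did not overlap. The log2 fold change of 0.13 ± 0.04 (SE) had a DESeq2 adjusted p of 0.00991 but was under the fold threshold. That adjusted p was 0.0649 without control 1 and 0.0855 without control 3. Chchd6, the paralogous MIC25, averaged 110.8 ± 12.8 normalized counts over the controls and 133.9 ± 15.1 over the iSOD2 hearts (SD, n = 5 each), and its log2 fold change of 0.28 ± 0.13 (SE) received no adjusted p because of its low counts. Immt, the MIC60 core of the complex, averaged 11056 ± 479 and 11327 ± 457 (SD, n = 5 each), and the difference on the log2 scale was 0.04 ± 0.05 (SE).

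The promoters of Timm8b and Chchd3 are shown because these were the members with an adjusted p of at most 0.05 and a RefSeq promoter entry. Such an entry was found for 33 of the 38 members and not for Chchd2, Tomm7, Timm21, Tomm40l and Chchd7. The 250 bases before the RefSeq transcript start are printed from 5′ to 3′ on the gene's strand (build GRCm38.p6, Timm8b at chr9:50603651-50603900, plus strand, and Chchd3 at chr6:33060261-33060510, minus strand), with motif matches in capitals.
Timm8b: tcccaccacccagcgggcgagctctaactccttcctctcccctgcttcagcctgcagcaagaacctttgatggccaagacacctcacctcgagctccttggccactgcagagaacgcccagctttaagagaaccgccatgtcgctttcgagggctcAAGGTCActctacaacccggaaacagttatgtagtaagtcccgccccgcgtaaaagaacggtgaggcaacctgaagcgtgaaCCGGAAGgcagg
Chchd3: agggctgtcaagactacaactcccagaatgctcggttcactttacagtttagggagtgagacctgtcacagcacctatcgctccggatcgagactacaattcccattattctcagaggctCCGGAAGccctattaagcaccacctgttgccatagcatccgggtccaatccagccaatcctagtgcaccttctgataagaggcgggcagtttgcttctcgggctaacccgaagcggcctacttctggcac
Across 300 bases, 250 before and 50 after the start, 4 motifs of factors known to act on nuclear genes for mitochondrial proteins were searched on both strands. CCGGAAG, the core bound by ETS factors such as GABPA, occurred in 14 of the 33 member promoters (42.4%), in 9.93% of all 27025 genes and in 19.8% of the 9332 genes averaging 50 normalized counts or more. In Timm8b it began 12 bases before the start and in Chchd3 130 bases before it. The Chchd3 transcript that was counted starts farther downstream, at chr6:33060152, so its distance to the match is larger. TGCGCA, an NRF1 core, occurred in 7 of the 33 (21.2%), against 15.7% of the expressed genes. AAGGTCA, the site of the ERR receptors, occurred in 4 (12.1%, Chchd6, Timm23, Timm44 and Timm8b), against 3.92% of the expressed genes. AAGATGG, a YY1 core, occurred in 5 (15.2%), against 8.41%. In Timm8b the AAGGTCA match began 94 bases before the start, and a TGCGCA match began 23 bases after it. These letters are matches and were not tested for binding.

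At the outer membrane entry gate, 7 of 9 TOM genes were higher, against 49.6% of all genes tested. An unadjusted DESeq2 p under 0.05 was found for 4, all higher (Tomm5, Tomm7, Tomm22 and Tomm40l), against 7.29% of all genes higher at that p. None was called. Tomm5, a small subunit, had 712.6, 612.4, 679.6, 823.7 and 738.6 normalized counts in controls 1, 2, 3, 4 and 6 and 959.3, 725.2, 844.8, 816.9 and 939.8 in iSOD2 hearts 5, 7, 8, 9 and 10. The groups overlapped, since iSOD2 heart 7 lay below 2 controls. The log2 fold change of 0.26 ± 0.10 (SE) had a DESeq2 adjusted p of 0.0703. Tomm5 passed both thresholds with litter as a covariate (0.26, adjusted p 0.0244), without control 4 (0.32, 0.0158) or without iSOD2 heart 7 (0.32, 0.0208). It was called under no other setting tried. Its adjusted p was 0.183 with edgeR, 0.188 with limma voom, and 0.655 with DESeq2 after the length trend was removed (log2 fold change 0.13). Tomm7, another small subunit, had 596.0, 639.8, 527.9, 689.4 and 694.1 normalized counts in the controls and 820.8, 681.7, 757.5, 708.3 and 695.6 in the iSOD2 hearts. Its log2 fold change of 0.22 ± 0.09 (SE) had a DESeq2 adjusted p of 0.109, and a single iSOD2 heart, 7, fell within the control range. Tomm22, a receptor subunit, had 853.7, 869.0, 917.8, 958.1 and 871.2 normalized counts in the controls and 1035, 957.3, 948.0, 1029 and 959.6 in the iSOD2 hearts. Its log2 fold change of 0.14 ± 0.06 (SE) had a DESeq2 adjusted p of 0.118, and control 4 overlapped the iSOD2 hearts. None of the other TOM genes was called either. Log2 fold changes were 0.13 for Tomm40l, 0.11 for Tomm6, 0.07 for the receptor Tomm20 and 0.03 for the pore Tomm40. The receptor Tomm70a had -0.05 and Tomm20l -0.06 ± 0.57 (SE). Tomm20l averaged 4.93 normalized counts and received no adjusted p. Of the SAM genes, which insert beta-barrel proteins, Mtx2 differed by 0.10, Mtx1 by 0.05 and the core Samm50 by -0.02 on the log2 scale. Tomm6os had -0.08, with no adjusted p, and Tomm34, a cytosolic co-chaperone, had 0.07.

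At the inner membrane all 6 TIM23 genes were higher, with none called, by log2 fold changes of 0.14 ± 0.06 (SE) for the receptor Timm50, 0.09 for Timm17b, 0.08 for the channel Timm23, 0.08 for Timm44, which anchors the import motor, 0.07 for Timm17a and 0.05 for Timm21. Timm50 averaged 608.1 ± 28.5 normalized counts over the 5 controls and 669.1 ± 18.6 over the 5 iSOD2 hearts (SD), which did not overlap, with a DESeq2 adjusted p of 0.155. The TIM22 genes Timm29 and Timm22 differed by 0.08 and 0.02. Chchd4, the oxidoreductase of the disulfide relay, had 0.14 ± 0.09 (SE, DESeq2 adjusted p 0.377). Among the other twin CX9C genes, Chchd1, a protein of the small mitochondrial ribosomal subunit, had 435.9, 433.3, 391.2, 460.3 and 417.9 normalized counts in the controls and 526.9, 451.7, 525.6, 453.0 and 471.3 in the iSOD2 hearts. Its log2 fold change of 0.18 ± 0.08 (SE) had a DESeq2 adjusted p of 0.142, and the ranges overlapped at control 4. Chchd7 had 0.17 ± 0.07 (SE, DESeq2 adjusted p 0.144) and Chchd5 had 0.17 ± 0.15 (SE), with no adjusted p.

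**Figure D2:**
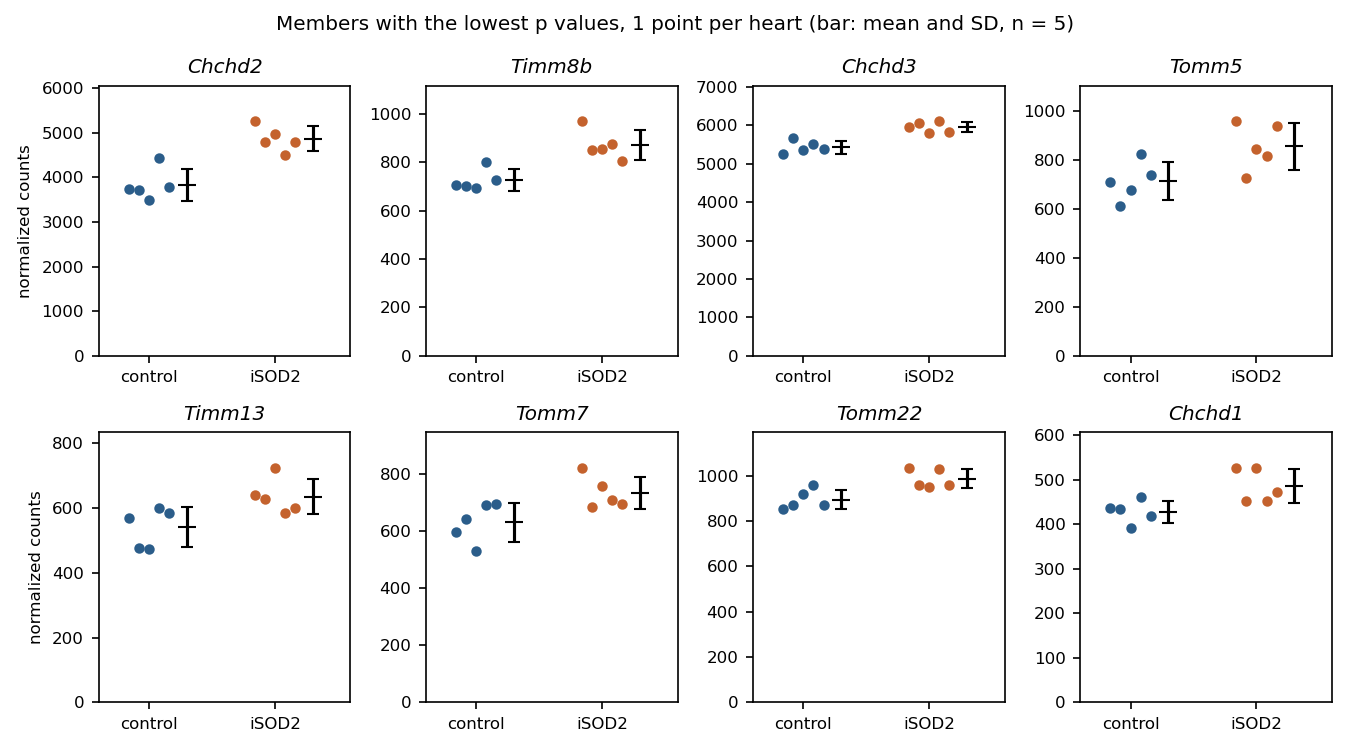
Normalized counts of the 8 members with the lowest p values, 1 point per heart, 5 control and 5 iSOD2; black bars are mean and SD and each axis starts at 0. The groups do not overlap for Chchd2, Timm8b and Chchd3 and overlap for the other 5.

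The higher values moved with exon length. Shorter genes were higher in iSOD2 hearts throughout the table. Over the 12151 genes with a mean of at least 50, the Spearman correlation of log2 fold change with exon length was -0.47, and over the 36 such members it was -0.64, each across genes, which share their libraries and are not independent replicates. The tested members had a median exon length of 1220 bp, against 2997 bp for those 12151 genes. The 19 shorter members had a median log2 fold change of 0.14 and 10 unadjusted DESeq2 p under 0.05, and the 18 longer ones 0.07 and 2. The slope of log2 deviation on log2 exon length was 0.006 to 0.053 in the controls and -0.051 to -0.018 in the iSOD2 hearts, so that it separated the genotypes. A difference in genotype and a difference in how the libraries treat short transcripts therefore cannot be told apart here.

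When each library's trends with exon length and GC content were removed, the median log2 fold change of the members was 0.01, against -0.01 for all genes, with 21 members higher and 16 lower. No member was called, while 0.656% of the genes with an adjusted p were. Chchd2 had a log2 fold change of 0.21 and a DESeq2 adjusted p of 0.0306, under the fold threshold, and was the only member with an adjusted p of at most 0.05, a condition met by 0.807% of those genes. After this step its normalized counts were 4032, 3986, 3682, 4445 and 3949 in the controls and 4934, 4726, 4740, 4375 and 4506 in the iSOD2 hearts, so that control 4 and iSOD2 heart 9 now overlapped. Timm8b had 0.13 (DESeq2 adjusted p 0.52) and Chchd3 0.02 (0.958). Chchd2 and Tomm40l (0.13) kept an unadjusted DESeq2 p under 0.05 and Tomm20 (0.12) now had one, a share of 3 in 37 against 8.87% of all genes. The Chchd2 to Chchd10 log2 ratio differed by 0.27, not significant after adjustment (exact permutation p 0.0397, adjusted 0.318 over the 8 pairs). That of Chchd3 to Immt, 0.10 before (exact permutation p 0.0476), differed by -0.00 (exact permutation p 0.944). The median deviation of the members from their mean over all hearts was -0.097 to 0.021 in the controls and 0.031 to 0.117 in the iSOD2 hearts, and after removal of the trends it overlapped, at -0.052 to 0.041 and -0.02 to 0.059.

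**Figure D3:**
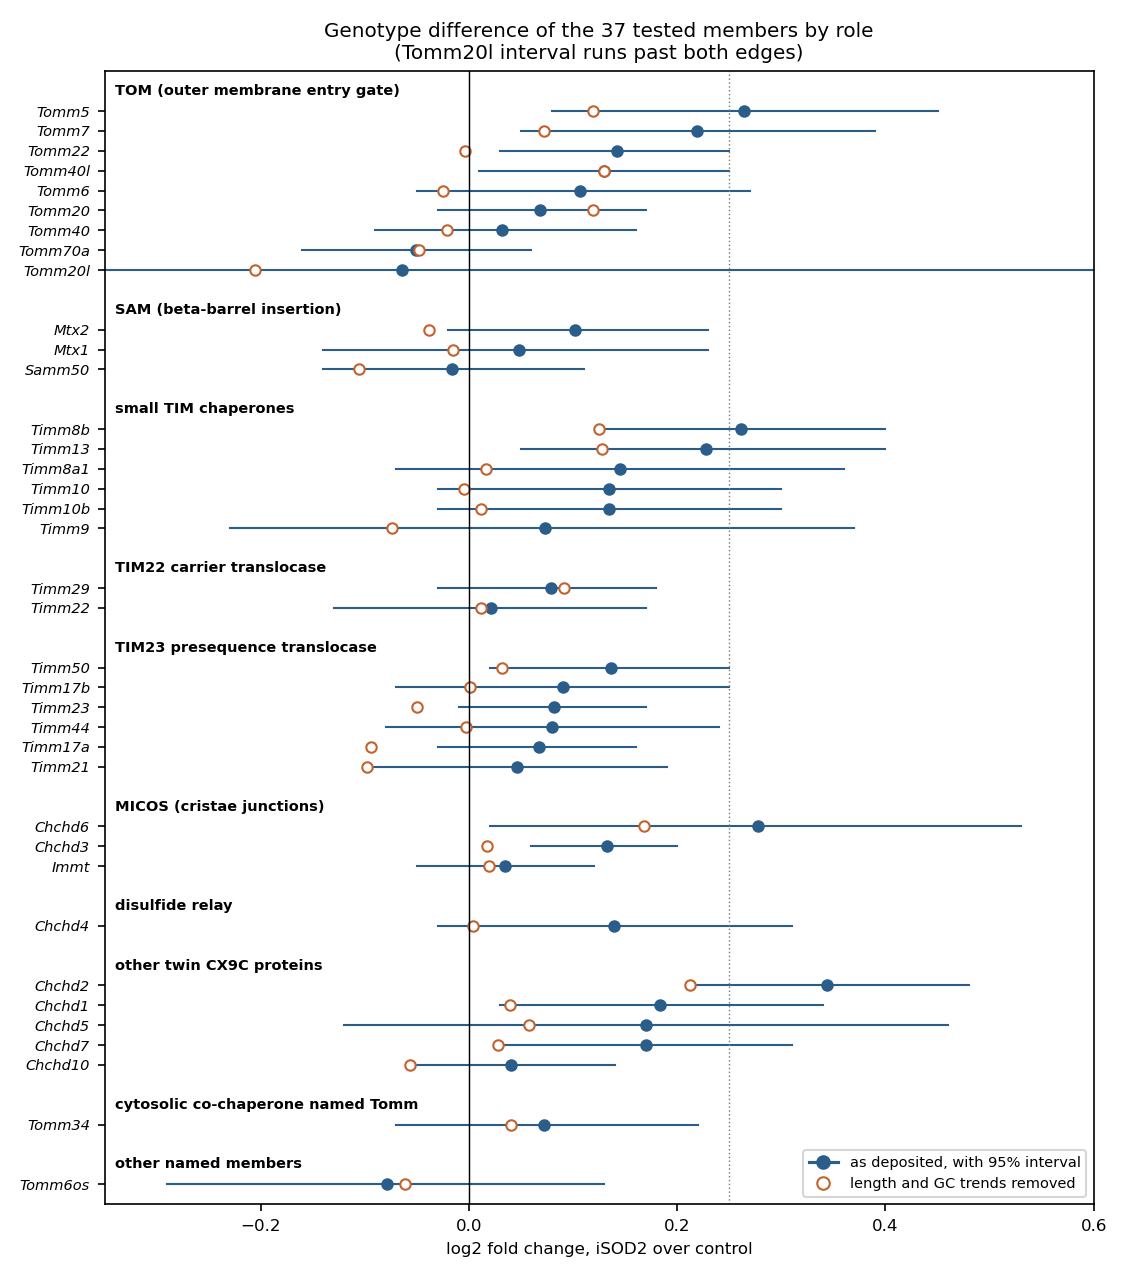
Log2 fold change (iSOD2 over control) of the 37 tested members by role. Filled points are the values as deposited with 95% intervals, open points those after removal of length and GC trends, and the dotted line is the fold threshold of 0.25; 33 filled points and 21 open points lie above 0.

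**Figure D4:**
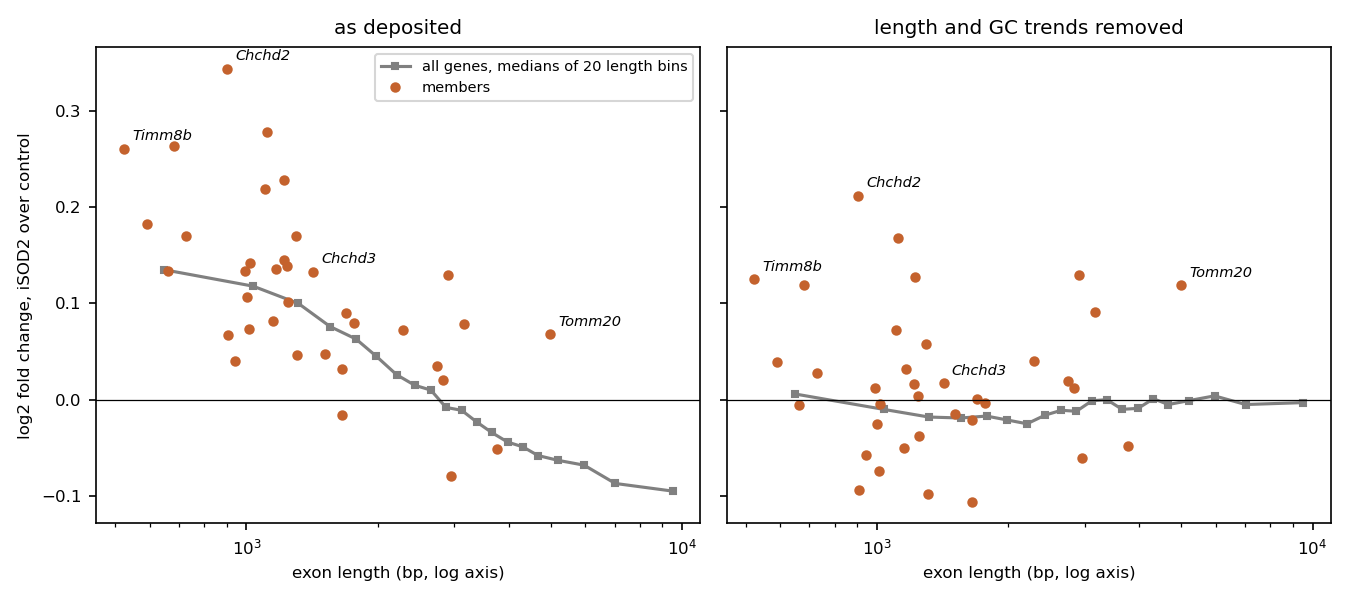
Log2 fold change (iSOD2 over control) against exon length on a log axis, before (left) and after (right) the trends were removed. Orange points are the 36 members averaging 50 normalized counts or more, and grey squares are medians of 20 length bins over 12151 genes, which fall from 0.135 in the shortest bin to -0.095 in the longest on the left.

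**Figure D5:**
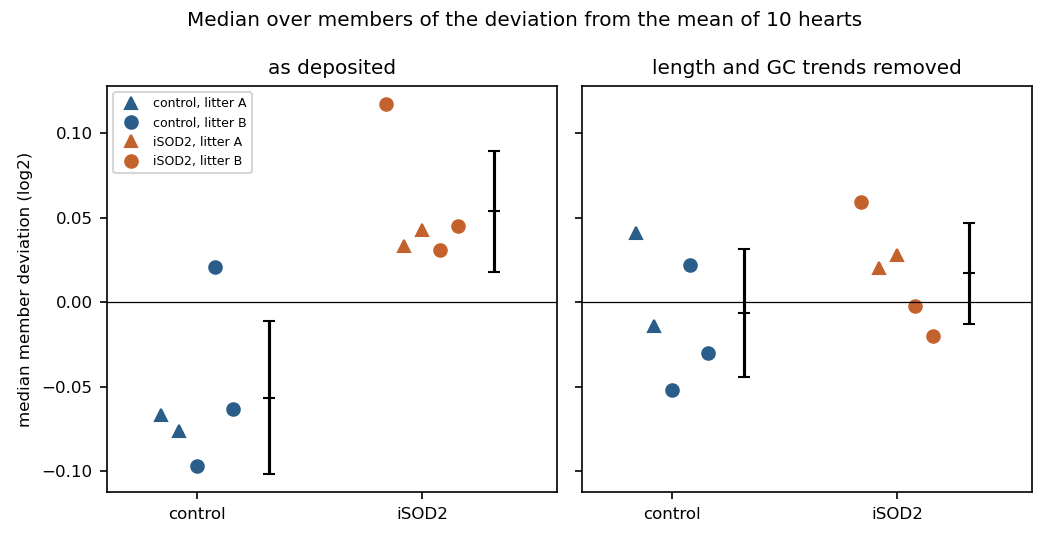
Median over 36 members of the log2 deviation from the mean of 10 hearts, 1 point per heart with litter A as triangles and litter B as circles, and group mean and SD in black. The genotypes do not overlap on the left (as deposited) and overlap on the right (trends removed).

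Other tests of the same counts made no call. With the quasi-likelihood test of edgeR, 12 of the 37 tested members had an unadjusted p under 0.05, against 15.3% of all genes. None was called, where 0.0% of all genes were. The lowest edgeR adjusted p was that of Chchd2, at 0.0664. With limma voom 12 of the 37 had a p under 0.05, against 15.5% of all genes, and the lowest adjusted p was 0.0713.

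Of a further 38 tested genes for import, folding, processing and cristae, listed by function with earlier results of these data known, 32 were higher and 6 lower. With DESeq2, 13 were higher at an unadjusted p under 0.05, against 7.29% of all genes, and 1 was lower at that p. None was called, where 2.96% of all genes with an adjusted p were, and the median log2 fold change was 0.05. A DESeq2 adjusted p of at most 0.05 was reached by 5 of the 37 that received one, against 6.09% of all such genes. These were the MICOS subunit Apoo (0.19, adjusted p 0.00693, named after its values were seen), the matrix co-chaperonin Hspe1 (0.22, 0.0152), Dnajc19 of the import motor (0.20, 0.0221), the inner membrane peptidase Immp1l (0.24, 0.0277) and the MICOS subunit Minos1 (0.22, 0.0315). The peptidase Xpnpep3 had -0.21 ± 0.11 (SE, DESeq2 adjusted p 0.245). After removal of the trends the median was 0.01, and Minos1, at 2603 bp the longest of those 5, had 0.20 (DESeq2 adjusted p 0.137) while Apoo had 0.03.

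Other nuclear genes for mitochondrial proteins showed a like shift. Of 78 mitochondrial ribosomal protein genes 73 were higher and 5 called (6.41%), with a median log2 fold change of 0.13. Of 37 complex I subunit genes 36 were higher and 6 called (16.2%), with a median of 0.15. Among the 9479 genes that received an adjusted p, 2.96% were called in either direction and 1.27% called and higher. The median exon lengths of the ribosomal and complex I lists were 1046 bp and 676 bp. After removal of the trends the medians of these lists were 0.01 and 0.03. Neither list then had a call, while 0.656% of the genes with an adjusted p did.

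Neither litter nor sex gave a call among the members. Between litters, with genotype in the DESeq2 model, no member was called, against 3.5% of genes with an adjusted p. Before adjustment 4 members were under 0.05, against 13.0% of all genes. The lowest adjusted p was that of Samm50 (0.122), at 3629 ± 168 normalized counts in litter A (SD, n = 4) and 3291 ± 152 in litter B (SD, n = 6). Between sexes no member was called, against 0.42% of genes with an adjusted p, and 4 had a p under 0.05, against 6.6% of all genes. The lowest DESeq2 adjusted p was that of Tomm5 (0.148), at 861.2 ± 90.1 in females and 709.3 ± 74.4 in males (SD, n = 5 each). The difference between genotypes did not vary detectably with sex or litter. No member had an unadjusted DESeq2 p under 0.05 for the interaction with sex (1.18% of all genes did) or with litter (1.79%), and all their adjusted p were 1.0. Within litter A 31 members were higher in iSOD2 hearts, within litter B 34, and 31 in both.

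Gene counts per library ran from 16448090.5 to 24263085.5. Defining markers of ventricular cardiomyocytes were present in every heart, and their summed normalized counts ran from 1560000 to 1800000 in controls and from 1470000 to 1790000 in iSOD2 hearts. All 8 hepatocyte markers examined were higher in iSOD2 hearts and none was at 0, with sums of 218 to 9770 in controls and 4760 to 20200 in iSOD2 hearts (exact permutation p 0.0714, Benjamini-Hochberg adjusted 0.429 over 9 marker lists). The atrial and macrophage lists had the same adjusted value, and no list had a lower one. All 4 atrial markers were also higher, with overlapping sums of 517 to 2120 and 634 to 7660 (exact permutation p 0.143). Over the hearts of both genotypes Sln had a median of 0.0 normalized counts and a highest value of 67.87. Myl7 had 4.674 and 372.3, and Myl4 had 47.07 and 427.9. The direction of Sln, Myl7 and Myl4 can therefore rest on few hearts. All 3 erythroid markers were lower (36100 to 70700 and 34300 to 50000). Of 4 macrophage markers 3 were lower (3300 to 4050 and 2790 to 3770). Of the hepatocyte markers, Apoa2 was called (log2 fold change 0.85, DESeq2 adjusted p 0.00246) and shares 951 bp with Tomm40l. The part of these markers in the members' values was not tested.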

How the data were processed

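RNA-seq of hearts from 10 mice was analysed. The authors aligned reads of rRNA-depleted stranded libraries to mm10 with STAR and used HOMER to sum reads over the exons of a single transcript of each gene. The authors deposited the estimated counts, in steps of 0.5 and not normalized, beside another unit, the exon length of that transcript. No strand option was stated. No gene of mitochondrial DNA was in the table.

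Counts were rounded. Genes with at least 10 counts in all were compared with the DESeq2 1.42.0 Wald test in R 4.3.3 with Benjamini-Hochberg adjustment over the genes that passed its independent filter on low counts, 9479 of 17728 for genotype. A gene was called at an adjusted p of at most 0.05 and an absolute log2 fold change above 0.25. Litter and sex were tested with genotype as a covariate, and interactions in a model with the product. Alternatives were edgeR 4.0.16 with TMM, limma 3.58.1 voom, TMM scaling, other filters, covariates, each litter alone, each mouse left out, and removal of each library's trend with exon length, without and with GC content (natural splines with 4 degrees of freedom over genes with a mean of at least 50, as gene-wise factors). Single values were compared by two-sided exact permutation over 252 arrangements. The models were checked on simulated counts whose changed genes had larger fold changes than any member, with no trend with exon length. That check does not bear on differences of the members' size or on the trend. GC content and transcript copies came from GENCODE and promoters from RefSeq, both on mm10 (GRCm38).

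Every member is named. The 8 members with the lowest p are given for every mouse, and of the other genes those called and up to 5 more by fold change. Apoo was named beside them for its adjusted p. Members, lists and motifs were chosen with earlier results of these data known. The spread between mice, which includes counting error, set the precision.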

Additional observations from a re-analysis of the deposited data

How the results depend on the processing

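The labels match no control mouse to a single iSOD2 mouse, so no analysis in pairs was made. Litter, which both genotypes share, was used as a covariate instead, and the members called were then 3 in place of 2, with Tomm5 added (adjusted p 0.0244). The count was also 3 with no fold threshold. It was 0 with edgeR, limma voom, removal of the length trend, removal of both the length and GC trends, and litter B alone, 1 with sex as a covariate or litter A alone, and 1 to 3 with a mouse left out. The share of all genes called was not worked out with covariates, in single litters or with a mouse left out. Those counts therefore cannot be set against the whole table. The median log2 fold change of the members, 0.10, was 0.014 with the length trend removed and 0.012 with both removed. The count of other import and cristae genes called, 0, was 5 with no fold threshold and 0 to 3 with a mouse left out, the highest without control 4. Of 813 values of single members under 22 settings, 38 changed direction. None of the members that did so was called. With the length trend removed these were Chchd10 (-0.092), Mtx1 (-0.052), Mtx2 (-0.014), Timm17a (-0.066), Timm21 (-0.068), Timm23 (-0.04), Timm44 (-0.001), Timm9 (-0.056), Tomm40 (-0.057) and Tomm6 (-0.022). With both trends removed they were Chchd10 (-0.057), Mtx1 (-0.015), Mtx2 (-0.038), Timm10 (-0.005), Timm17a (-0.094), Timm21 (-0.098), Timm23 (-0.05), Timm44 (-0.003), Timm9 (-0.074), Tomm22 (-0.004), Tomm40 (-0.021) and Tomm6 (-0.025). Samm50 was 0.002 with sex as a covariate and 0.048 in litter B alone, and in litter A alone Immt was -0.016 and Timm17a -0.032. With a mouse left out Samm50 ran from -0.054 to 0.023, Mtx1 from -0.005 to 0.091, Timm22 from -0.019 to 0.047, Timm9 from -0.019 to 0.156 and Tomm20l from -0.299 to 0.116. The cause of these changes was not tested. Low counts limited Timm8a2 and Tomm20l, and differences under the spread between mice were not detectable.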
